A study of Mus musculus with 12 samples.

Results

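The transcripts described here are those of 10 genes of the primary granule and of early granulocyte precursors: Mpo, Elane, Prtn3, Ctsg, Prss57, Srgn, Serpinb1a, Ms4a3, Igsf6 and Nkg7. They were chosen by symbol, with earlier results of these data known. Each symbol matched 1 Ensembl identifier, and they are 10 of the 56748 genes counted. RNA-seq was carried out on donor-derived LSK cells (CD45.2+ Lin-Sca+Kit+), the bone marrow (BM) fraction that holds the stem cells and the earliest multipotent progenitors, from mice that carried SCLtTA/BCR-ABL (DTG) donor marrow. In this model the Scl-driven transactivator tTA switches on the human BCR::ABL1 transgene in stem and progenitor cells once tetracycline (TET) is withdrawn. All recipients were irradiated B6.SJL mice (CD45.1) aged 8 to 12 weeks, and the donor cells of both groups carried both transgenes. The CTRL group (TET on, BCR::ABL1-, n = 6 libraries) was kept on TET, and the CML 2wk group (TET off, BCR::ABL1+, n = 6 libraries, CML below) was without TET for 2 weeks. The donor cells were a frozen pool of BM from DTG mice of both sexes, and no source states that each library was a different recipient, so that p-values measure the spread between libraries. The labels give 1 sex per group, male for CTRL and female for CML, so the labelled sex and BCR::ABL1 cannot be told apart.

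Primary (azurophil) granules are made early in granulocyte differentiation, at the promyelocyte stage, and store enzymes that later kill microbes. Myeloperoxidase (Mpo) makes hypochlorous acid, and the serine proteases neutrophil elastase (Elane), proteinase 3 (Prtn3), cathepsin G (Ctsg) and neutrophil serine protease 4 (Prss57) cut proteins. The proteases bind to the proteoglycan serglycin (Srgn), and Serpinb1a inhibits several of them in the cytosol. Transcription of these genes is already detected in multipotent and granulocyte-monocyte progenitors, where the factors PU.1, C/EBPα, RUNX1 and MYB are known to act on them.

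Reference promoter sequence was available for 8 of the 10 genes and for none of Prss57 and Serpinb1a. The 250 bases before the annotated start are shown for the genes of the 4 most abundant granule enzymes and for Ms4a3, the gene with the largest difference below. They are from RefSeq on GRCm38.p6 and are written 5′ to 3′ on the strand of the gene. The windows are chr11:87793534-87793783 (plus strand) for Mpo, chr10:79886062-79886311 (plus) for Elane, chr10:79879417-79879666 (plus) for Prtn3, chr14:56102575-56102824 (minus) for Ctsg and chr19:11640852-11641101 (minus) for Ms4a3. Capitals mark every match, on either strand, to GAGGAA (a PU.1 type core), CAACNG (MYB type), TGNGGT (RUNX type core) or TTGCNNAA (C/EBP type).
Mpo: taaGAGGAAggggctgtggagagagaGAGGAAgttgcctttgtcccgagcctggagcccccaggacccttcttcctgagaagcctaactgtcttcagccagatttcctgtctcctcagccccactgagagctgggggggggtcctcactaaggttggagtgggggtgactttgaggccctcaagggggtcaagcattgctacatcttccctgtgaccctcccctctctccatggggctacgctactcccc
Elane: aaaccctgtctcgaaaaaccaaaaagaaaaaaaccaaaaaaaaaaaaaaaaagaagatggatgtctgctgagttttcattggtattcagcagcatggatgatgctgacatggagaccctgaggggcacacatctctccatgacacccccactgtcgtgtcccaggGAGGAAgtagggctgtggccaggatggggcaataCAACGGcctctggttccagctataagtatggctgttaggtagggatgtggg
Prtn3: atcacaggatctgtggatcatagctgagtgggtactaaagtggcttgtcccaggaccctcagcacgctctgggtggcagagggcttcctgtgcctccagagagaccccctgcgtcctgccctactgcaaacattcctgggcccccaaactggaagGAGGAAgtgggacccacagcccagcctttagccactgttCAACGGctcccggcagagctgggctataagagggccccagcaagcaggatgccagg
Ctsg: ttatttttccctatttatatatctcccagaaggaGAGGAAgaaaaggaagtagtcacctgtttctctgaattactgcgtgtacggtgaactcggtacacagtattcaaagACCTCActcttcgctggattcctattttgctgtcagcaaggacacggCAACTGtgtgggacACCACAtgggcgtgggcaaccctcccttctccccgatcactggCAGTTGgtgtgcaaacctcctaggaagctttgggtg
Ms4a3: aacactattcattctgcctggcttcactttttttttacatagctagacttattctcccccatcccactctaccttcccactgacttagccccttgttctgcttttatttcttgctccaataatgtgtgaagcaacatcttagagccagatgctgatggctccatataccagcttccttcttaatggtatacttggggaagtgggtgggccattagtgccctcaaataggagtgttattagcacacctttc
The neighbouring genes Elane and Prtn3 held 1 GAGGAA and 1 CAACGG each, in the same order and on the gene strand. GAGGAA lay at -85 to -80 in Elane and -95 to -90 in Prtn3, where -1 is the base before the start, and CAACGG lay at -51 to -46 and -56 to -51. Ctsg held 1 GAGGAA, 2 MYB type matches and 2 RUNX type matches, Mpo held 2 GAGGAA only, and Ms4a3 held none of the 4 motifs. GAGGAA was found in 23.3% of 32851 mouse windows of the same length, CAACNG in 29.3%, TGNGGT in 40.1% and TTGCNNAA in 9.56%, and GAGGAA and CAACNG together in 6.58%. Such a match describes letters in this window and is not evidence of binding.

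The libraries held 22804754 to 41832868 counts in CTRL and 16150817 to 25070105 in CML. Levels are given below as CPM, counts scaled to a common library size with TMM factors, and each of the 10 genes had at least 509 counts in every library. Mitochondrial genes held 0.816 to 1.29% of counts in CTRL and 2.26 to 2.97% in CML. Of the genes of the sorting markers, Kit was lower in CML (log2 fold change -0.86), Ptprc, which encodes CD45, was higher (0.27), and Ly6a, which encodes Sca-1, did not pass the test (0.38, edgeR adjusted p = 0.0660). Cd34, which was not used in the sort, was lower (-0.44). The transgene itself was not counted, so the labels could not be checked on it. The sum of 12 stromal markers was 933 CPM in CML 2 and 362 in CML 4 against 65.2 to 102 in the other 10 libraries. Most of the sum in those 10 came from Pdgfrb, which lay between 59.1 and 94.5 CPM in CTRL and between 62.1 and 111 over all 6 CML libraries. The sum of 16 mature neutrophil genes was 2951 CPM in CTRL 4 against at most 679.5 in the other 11.

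To find which of the granule genes differed between BCR::ABL1+ and BCR::ABL1- cells, edgeR's quasi-likelihood test was run over 18438 genes, with a call at an adjusted p under 0.05. All 10 genes were called higher in CML, where 30.6% of all genes tested were so called, and 0 of 10 were called lower, against 29.0% of all genes. The median log2 fold change of the 10 genes was 1.66, against 0.07 over all genes tested. The 10 genes were chosen with earlier results of these data known, so the contrasts with all genes are a description. In 8 of the 10 every CML library lay above every CTRL library, as it did in 17.0% of all genes. The exceptions were Mpo and Nkg7, which also had the smallest differences. In bulk cells, a larger number of granulocyte-primed cells among the LSK cells and more RNA per cell cannot be told apart.

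**Figure D1:**
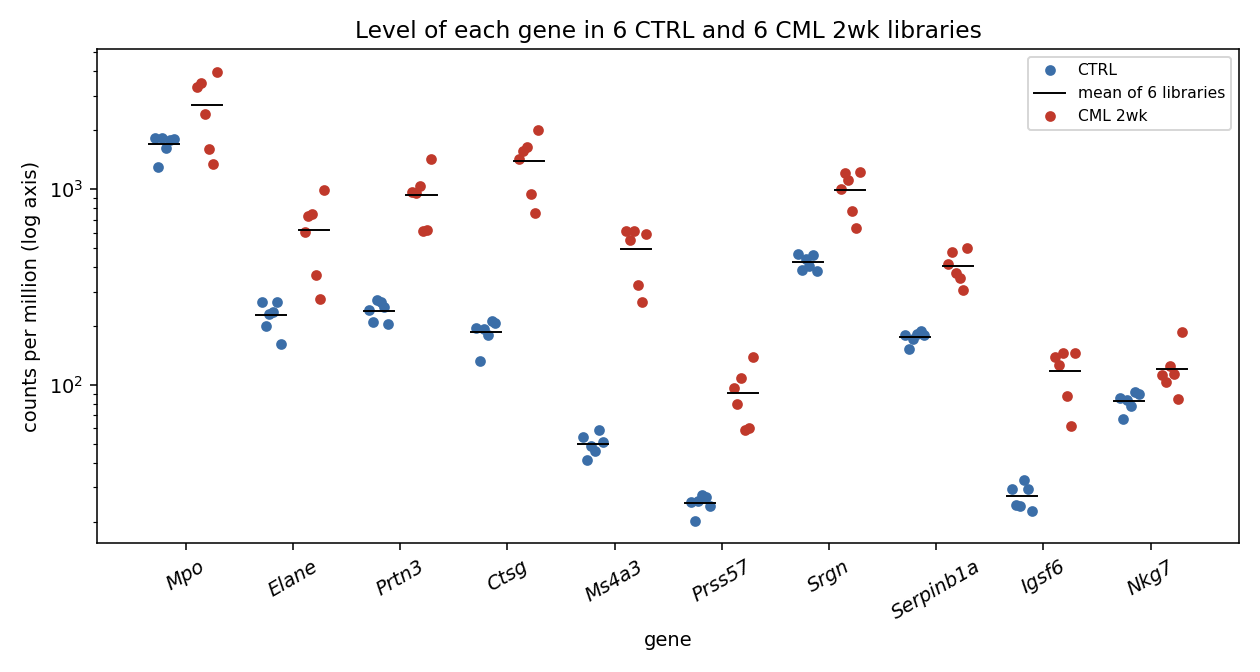
Level of each of the 10 genes in every library, in CPM on a log axis, with CTRL libraries in blue, CML 2wk libraries in red and the mean of each group of 6 as a black line. Mpo and Nkg7 are the genes whose groups overlap, while for Ms4a3 the CTRL libraries end at 59.1 CPM and the CML libraries begin at 266.

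Mpo, the most abundant of the 10 per length of exon in CTRL, was also the gene with the most CML libraries inside the CTRL range. Its level in CTRL ran from 1305 CPM through a median of 1799.9 to 1821, and in CML from 1338 through 2873 to 3975. CML 1, 2, 3 and 6 lay above all CTRL libraries, and CML 4 and 5 lay inside the CTRL range. The means were 1695 ± 205 and 2692 ± 1072 CPM (SD, n = 6 each), a 1.59-fold difference with a log2 fold change of 0.67 ± 0.23 (SE; edgeR adjusted p = 0.0195). The call rested on CML 6: without it the log2 fold change was 0.51 (adjusted p = 0.0528), and with libraries 1 to 5 of each group only it was 0.55 (adjusted p = 0.0635). Mpo shares 512 of its 3424 exon bases with Gm11505 on the opposite strand, which held at most 68 counts in any library.

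The 4 serine protease genes all rose, with log2 fold changes larger than that of Mpo. Elane lay between 162 and 267 CPM in CTRL (median 233) and between 275 and 996 in CML (median 667). The groups did not overlap, although CML 5 was only just above the highest CTRL library, and the log2 fold change was 1.45 ± 0.25 (SE; edgeR adjusted p = 0.00019). Prtn3 was at 204 to 270.3 CPM in CTRL (median 247) and at 613 to 1423 in CML (median 960.3), again with no overlap. Its log2 fold change was 1.96 ± 0.18 (SE; edgeR adjusted p = 5.02e-07).

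Ctsg showed the largest difference among the proteases. It ran from 133 to 211 CPM in CTRL (median 194) and from 754 to 2016 in CML (median 1503), so that the lowest CML library was above 3 times the highest CTRL library. This was a 7.47-fold difference (log2 fold change 2.90, 95% confidence interval 2.45 to 3.36, edgeR adjusted p = 8.40e-08), ranked 106 among the 18438 genes. Prss57, which encodes a protease that cuts after arginine, had the lowest level of the 10 per length of exon in both groups. It rose from 20.2 to 27.2 CPM in CTRL (median 25.3) to 58.9 to 138 in CML (median 88.3), a log2 fold change of 1.86 ± 0.18 (SE; edgeR adjusted p = 9.46e-07). Prtn3 shares 159 exon bases with Plppr3, and Prss57 shares 1157 of 2843 with Fstl3, both on the opposite strand. Plppr3 was lower in CML (log2 fold change -0.32) and Fstl3 held at most 63 counts in a library against at least 509 for Prss57.

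The gene for the matrix that stores these enzymes and the gene for their inhibitor rose by similar amounts. Srgn lay between 383 and 467 CPM in CTRL (median 423) and between 633 and 1225 in CML (median 1059). Its log2 fold change was 1.23 ± 0.14 (SE; edgeR adjusted p = 4.56e-06). Serpinb1a was the most even of the 10 genes within each group, at 153 to 188 CPM in CTRL (median 180.45) and 306 to 500.2 in CML (median 394). Its log2 fold change was 1.20 ± 0.11 (SE; edgeR adjusted p = 4.82e-07).

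The 3 membrane protein genes held both the largest and the smallest difference. Ms4a3, a membrane-spanning protein known as a marker of cells that pass through the granulocyte-monocyte progenitor stage, lay between 41.3 and 59.1 CPM in CTRL (median 49.965) and between 266 and 614 in CML (median 571). Its 9.85-fold difference (log2 fold change 3.30, 95% confidence interval 2.86 to 3.74, edgeR adjusted p = 2.77e-08) ranked 77 among all genes tested. Igsf6, an immunoglobulin superfamily receptor of myeloid cells, rose from 22.7 to 32.6 CPM (median 26.9) to 61.4 to 145 (median 132), a log2 fold change of 2.11 ± 0.19 (SE; edgeR adjusted p = 4.11e-07). It lies inside Mettl9 on the opposite strand without a shared exon base, and Mettl9 did not pass the test (0.10, adjusted p = 0.239).

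Nkg7, a granule membrane protein best known from cytotoxic lymphocytes, changed least. It lay between 67.0 and 91.8 CPM in CTRL (median 84.7) and between 84.3 and 186 in CML (median 113), and CML 5 was inside the CTRL range. The log2 fold change was 0.55 ± 0.15 (SE; edgeR adjusted p = 0.00535). The sum of 12 T and NK cell markers was 13.4 to 34.2 CPM in CTRL and 9.64 to 23.1 in CML, and 1 of the 9 tested was higher and 2 lower. Without CTRL 6, 5 were lower, without CML 2, 4, and without CML 6, 6. The higher gene was Klrb1c (0.62), whose call was lost in 9 of 20 alternatives, while Il7r (-0.68) and Ccl5 (-0.82) did not pass the test.

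**Figure D2:**
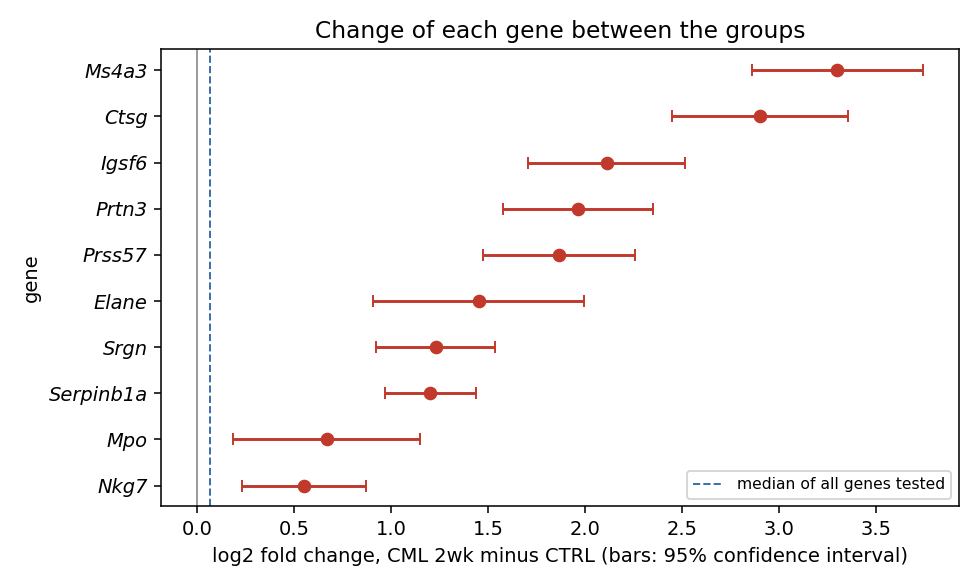
Log2 fold change of each gene, CML 2wk minus CTRL, with its 95% confidence interval, and the median of all genes tested as a dashed line. The intervals run from 0.18 to 1.15 for Mpo at the low end to 2.86 to 3.74 for Ms4a3 at the high end.

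Per kilobase of exon, which allows genes to be set side by side, the order of the levels was not the same in the 2 groups. The lengths join all exons annotated on GRCm38, not the annotation of the counts, and for Prss57 include the bases shared with Fstl3. The places of genes close in level may therefore depend on the lengths used. In CTRL, Mpo led at 495 CPM per kb (381 to 532) and stood clear of Elane, the next, at 230.4 (164 to 271). Elane, Srgn (193), Ctsg (181) and Prtn3 (139) followed, and each neighbouring pair of these overlapped. Nkg7 (90.4) and Serpinb1a (76.3) overlapped as well, and Ms4a3 (26.6), Igsf6 (12.5) and Prss57 (8.73) followed with ranges that did not meet. In CML, Ctsg had the highest mean at 1349 CPM per kb (729 to 1951), followed by Mpo at 786 (391 to 1161), Elane at 629 (280 to 1012) and Prtn3 at 540 (354 to 822), and all these neighbours overlapped. Ms4a3, eighth in CTRL, was sixth in CML at 262 (141 to 326).

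Since counts within a library share its depth, the ratio of a pair of genes gives the same difference without any scaling. These ratios were chosen after the values were seen and are given as a description. There were 0.102 to 0.118 counts of Ctsg for each count of Mpo in the CTRL libraries and 0.431 to 0.674 in the CML libraries. For Ms4a3 against Mpo the ranges were 0.0270 to 0.0330 and 0.149 to 0.253. The neighbouring protease genes were also unequal, with 0.917 to 1.26 counts of Prtn3 for each of Elane in CTRL and 1.30 to 2.26 in CML. Elane against its inhibitor Serpinb1a overlapped between the groups, at 0.898 to 1.46 in CTRL and 0.899 to 2.01 in CML.

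The 10 genes varied more between CML libraries than between CTRL libraries. The median SD of log2 CPM over the 10 genes was 0.18 in CTRL and 0.50 in CML, while over the 6445 genes of a mean log2 CPM of at least 5 it was 0.085 and 0.17. The highest and the lowest CML libraries were nearly the same from gene to gene, while CML 1, 2 and 3 changed places (mean ranks 3.8, 3.7 and 4.6). CML 6 was the highest for 8 of the 10 genes, and CML 5 was among the lowest 2 libraries for 10 and CML 4 for 9. Summed over the 10 genes the level was 4399 CPM in CML 5, 5240.3 in CML 4, 8314 in CML 3, 8707 in CML 1, 9297 in CML 2 and 11198 in CML 6, against 2541 to 3375 in CTRL. As a share of all counts, without TMM factors, this was 0.468% in CML 5 and 1.04% in CML 6, against 0.263 to 0.334% in CTRL. Libraries 1 to 5 carry consecutive library numbers within each group, so that a run of numbers and the group cannot be told apart, and only the replicates 6, which lie outside these runs, are close in number. Their sums were 3132 CPM in CTRL 6 and 11198 in CML 6. The pairwise correlation of log2 CPM among the 10 genes had a median of 0.89 over the 6 CML libraries and 0.61 over the 6 CTRL libraries, and 45 of 45 pairs were positive in each group. These points share library and scaling, and the correlations are a description only.

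**Figure D3:**
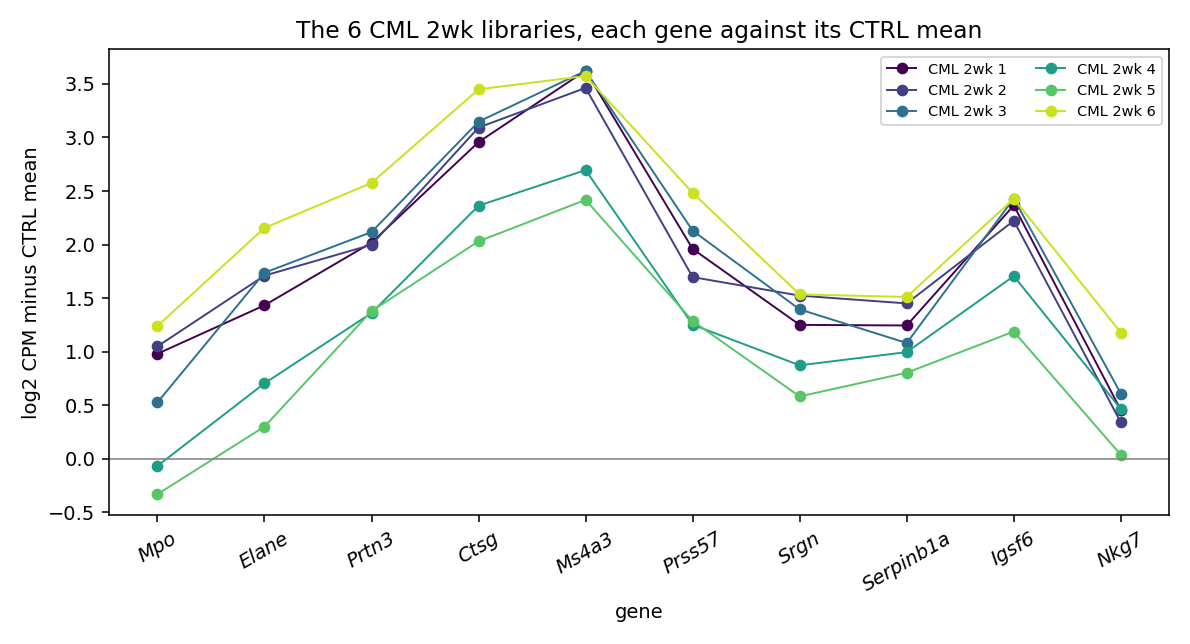
Log2 CPM of each gene in each CML 2wk library minus the mean of the CTRL libraries; lines join the genes of 1 library. CML 6 is the top line for 8 of the 10 genes, CML 5 is among the bottom 2 for all 10 and CML 4 for 9, and for Mpo both of them lie below 0.

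Markers of other cells differed between the same libraries, and their part in the order was not tested. The sum of 10 stem cell markers was highest in CML 5 (568 CPM) and CML 4 (542), which were lowest for the granule genes, and lowest in CML 6 (409.8), which was highest for them. The sum of 10 monocyte markers was 2926 CPM in CML 2, of which 2005 CPM came from Fn1, the gene of the matrix protein fibronectin. The other 9, set apart after the values were seen, summed to 431 in CML 5, 468 in CML 4, 683 in CML 3, 800.3 in CML 6, 921 in CML 2 and 1083 in CML 1. The sum of 10 basophil and mast cell markers was lowest in CML 6, at 490.3 CPM, and highest in CML 2, at 2848, so its order was unlike that of the granule genes. With CML 2 and CML 4, the libraries high in stromal markers, both left out, all 10 genes were still called higher, and log2 fold changes over all alternatives ran from 2.75 to 3.03 for Ctsg and from 3.23 to 3.43 for Ms4a3.

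Among 13432 genes ranked by the correlation of their group-centred log2 CPM with the mean of Mpo, Elane, Prtn3 and Ctsg over the 12 libraries, the 5 highest were Lamp2 (0.98), P4hb (0.97), Idh1 (0.96), Anxa3 (0.96) and Yif1a (0.95). Lamp2 encodes a lysosomal membrane glycoprotein, P4hb a protein disulphide isomerase of the endoplasmic reticulum (ER) and Anxa3 an annexin found in neutrophil granules. All 5 were also higher in CML, from a log2 fold change of 0.75 for Yif1a to 1.88 for Anxa3. P4hb, for example, had a mean of 500.3 CPM in CTRL and 855 to 1698 in CML. The 5 lowest were Tnrc6a (-0.96), Cdk17 (-0.95), Lrch4 (-0.93), Syne2 (-0.93) and Gm16675 (-0.93). Within CTRL alone, the 5 highest had correlations of 0.80 to 0.89 and the 5 lowest of -0.72 to -0.59. Within CML alone, which varied more, these were 0.97 to 0.99 and -0.99 to -0.96. The genes were picked as the extremes of the ranking, and the correlations are a description only. Tnrc6a, a scaffold of miRNA silencing, fell by 0.42 on the log2 scale, Syne2, which links the nucleus to the cytoskeleton, by 1.27, Cdk17, a kinase, by 0.46 and Lrch4 by 0.71, while Gm16675 did not pass the test (0.03).

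Of 10 transcription factors known to act on primary granule genes, 5 were called higher and 4 lower. Beside this and the counts of the lists below, 30.6% of all genes tested were called higher and 29.0% lower. The C/EBP family members rose: Cebpa by 0.51 on the log2 scale (66.1 to 94.1 CPM as group means), Cebpb by 0.88, Cebpd by 1.43 and Cebpe, which acts later in granulocyte maturation, by 0.75. The call of Cebpe (edgeR adjusted p = 0.0324) was lost in 12 of 20 alternatives, with an adjusted p between 0.00736 and 0.152. Gfi1, a repressor needed for neutrophil differentiation, rose by 0.70. Irf8, which favours the monocyte and dendritic cell fates over granulocytes, fell by 1.47 on the log2 scale, from 132 to 202 CPM in CTRL to 24.2 to 104 in CML. Runx1 (-0.34), its partner Cbfb (-0.30) and Myb (-0.29) were lower by small amounts, and Spi1, which encodes PU.1, did not pass the test (0.06, adjusted p = 0.526).

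Other genes of early granulocyte precursors moved in the same direction as the 10 genes for the most part. Of 14 such genes, 10 were called higher and 1 lower, with a median log2 fold change of 1.23. Plac8 rose from 299 to 452 CPM in CTRL to 1062 to 2253 in CML (log2 fold change 1.97), and Lta4h, an enzyme of leukotriene B4 synthesis, did not pass the test (-0.12). The gene called lower was Csf3r, the receptor of G-CSF (-0.44), named after its value was seen, and 2 genes were lower without CTRL 3, CTRL 6, CML 2 or CML 6.

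Genes that activate, fold, sort or release granule proteins were mixed, with 10 of 17 called higher and 5 lower, and a median of 0.41. Ctsc, the dipeptidyl peptidase that activates all these serine proteases by removing their propeptide, was at 66.4 to 77.1 CPM in CTRL and 106 to 175 in CML (log2 fold change 0.83), and Cst7, an inhibitor of Ctsc, rose by 1.46. The ER chaperones Calr (0.94) and Pdia3 (0.92) rose, and Canx (0.19, adjusted p = 0.104) did not pass the test. The 5 called lower, named after their values were seen, were Unc13d (-1.09), Stxbp2 (-0.49), Ap3b1 (-0.32), G6pc3 (-0.25) and Vps13b (-0.20). Under upper-quartile scaling 3 of these 17 genes, not 5, were called lower.

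In chondroitin sulphate synthesis, which makes the chains of serglycin, 4 of 12 genes were higher and 5 lower. Csgalnact2, which starts the chain, rose from 107 to 160.3 CPM in CTRL to 323 to 497 in CML (log2 fold change 1.59), while Chsy1 (0.24, adjusted p = 0.0510) and Xylt1 (0.02) did not pass the test. The 5 lower genes, named after their values were seen, were Csgalnact1 (-0.91), Chst15 (-0.65), Xylt2 (-0.50), Chst12 (-0.32) and B3gat3 (-0.30). Of 10 other inhibitors of granule proteases, 8 were tested, 2 were higher and 1 was lower, a count of lower genes that was 0 in 8 of the alternatives and 2 in 3. Serpinb6a rose by 1.04 on the log2 scale, whereas Serpina3g (0.14) and Serpinb9 (-0.04) did not pass the test. Of 16 acid hydrolases and antimicrobial proteins also stored in primary granules, 14 were tested and 5 were higher and 5 lower, with a median of -0.01. Ctsb was higher (0.56), Man2b1 lower (-0.31), and Lyz2, lysozyme, was at 124 to 348 CPM in CTRL and 124 to 242 in CML and did not pass the test (-0.27).

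Relatives of the 10 genes from the same families differed widely, with 16 of 23 tested, 8 of them higher and 2 lower. Epx, the eosinophil relative of Mpo, was at 7.32 to 17.8 CPM in CTRL and 0 to 7.69 in CML (log2 fold change -1.83, edgeR adjusted p = 0.0170). Mcpt8 and Gzmb, serine proteases related to Ctsg and used by basophils and cytotoxic or mast cells, rose by 2.43 and 3.34. Among the relatives of Ms4a3, Ms4a6b (0.59), Ms4a6c (1.05) and Ms4a6d (2.66) also rose, and Ms4a4c (-1.11) was lower. Ms4a1 (-0.95), Ms4a2 (0.43) and Ms4a4b (-0.06) did not pass the test.

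In the reference order of genes, Prss57, Prtn3 and Elane lie close together on chromosome 10, with Palm, Misp, Ptbp1 and Plppr3 between Prss57 and Prtn3 and Cfd after Elane. Of the neighbours tested, Fstl3 alone was called higher. Ptbp1 (-0.62), Plppr3 (-0.32), Med16 (-0.75) and Rnf126 (-0.29) were lower, Palm did not pass the test (0.06, adjusted p = 0.661), and Misp and Cfd, the gene of complement factor D, were too low to be tested. Fstl3 (1.69) was at mean levels of 0.58 CPM in CTRL and 1.85 in CML, and overlaps Prss57. Around Ctsg on chromosome 14, the mast cell protease genes Mcpt8 (2.43) and Mcpt4 (4.83) were higher as well. Mcpt4 was at 0 to 2.15 CPM in CTRL and 5.82 to 26.7 in CML. On the other side, Gzme was at 0 in all CTRL libraries and at most 61 counts in CML, and Gzmd was at 0 in all 12 libraries.

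**Figure D4:**
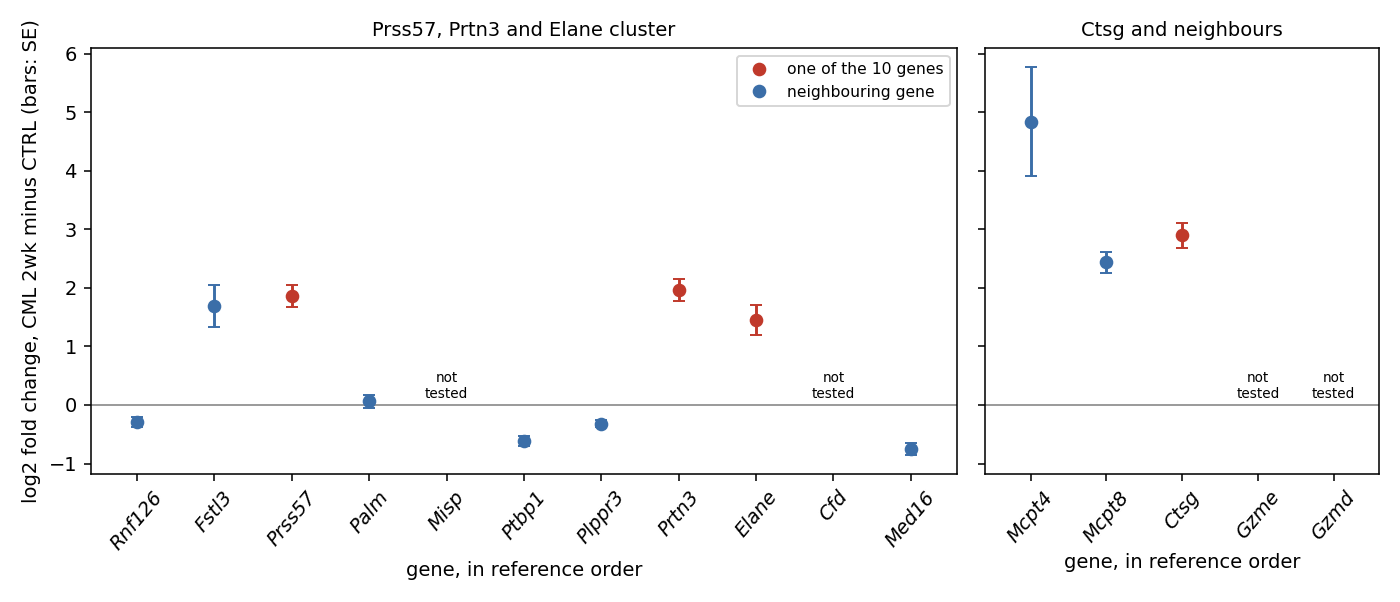
Log2 fold change with its SE for genes in reference order around Prss57, Prtn3 and Elane (left) and around Ctsg (right), with the 10 genes in red, their neighbours in blue and untested genes marked. On the left, 4 neighbours lie below 0, Palm lies just above it (0.06) and Fstl3 lies further above. On the right, Mcpt4 at 4.83 and Mcpt8 at 2.43 lie above 0 like Ctsg.

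Genes of later granules did not follow the primary granule genes. Of 16 genes of secondary and tertiary granules and mature neutrophils, 1 was called higher and 6 lower, with a median log2 fold change of -1.32. S100a9 was at 33.7 to 732 CPM in CTRL and 21.1 to 115 in CML (-1.91, edgeR adjusted p = 0.0226), S100a8 did not pass the test (-1.02), and Padi4 fell by 0.62 on the log2 scale. These CTRL levels were set in part by CTRL 4, and without it 2 genes were higher and 2 lower, and S100a9 did not pass the test (-0.92, adjusted p = 0.124). With the replicate block 3 were lower, and 0 were higher in 5 of the alternatives, among them those without CTRL 3, CTRL 5 or CML 1. The 10 genes were not raised in CTRL 4, where their sum was 3073 CPM.

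Markers of monocytes, basophils and mast cells, and stem cells differed between the groups together with the granule genes, and their part in the result was not tested. Of 10 monocyte markers, 5 were higher and 1 lower (median 1.61), among them Ccr2 (1.86), F13a1 (1.87) and Ly6c2 (1.35), and their sum was 225 to 331 CPM in CTRL and 432 to 2926 in CML. Without Fn1, which did not pass the test (3.55, adjusted p = 0.0544), the sum was 217 to 286 CPM in CTRL and 431 to 1083 in CML. Without CML 2, 2 monocyte markers were lower. Of 10 basophil and mast cell markers, 8 were higher and 0 lower (median 2.83), with Cpa3 at 41.9 to 94.4 CPM in CTRL and 156 to 916 in CML (2.57), Il1rl1 at 3.09 and Hdc at 1.57, and the sum was 109.9 to 224 against 490.3 to 2848. Without CTRL 6, CML 1 or CML 3, 1 of them was lower. Of 10 stem cell markers, 0 were higher and 9 lower (median -0.76), with Hlf at 292 to 408 CPM in CTRL and 79.9 to 145 in CML (-1.64), Meis1 at -0.69 and Mecom at -0.83. Of 12 stromal markers, 7 were tested and 4 were higher, among them Sparc (4.74) and Col1a2 (3.42), while Pdgfrb did not pass the test (0.03). Without CML 2, 2 were higher and 1 lower, and without CML 2 and CML 4, 0 stromal markers were higher and 4 lower.

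**Figure D5:**
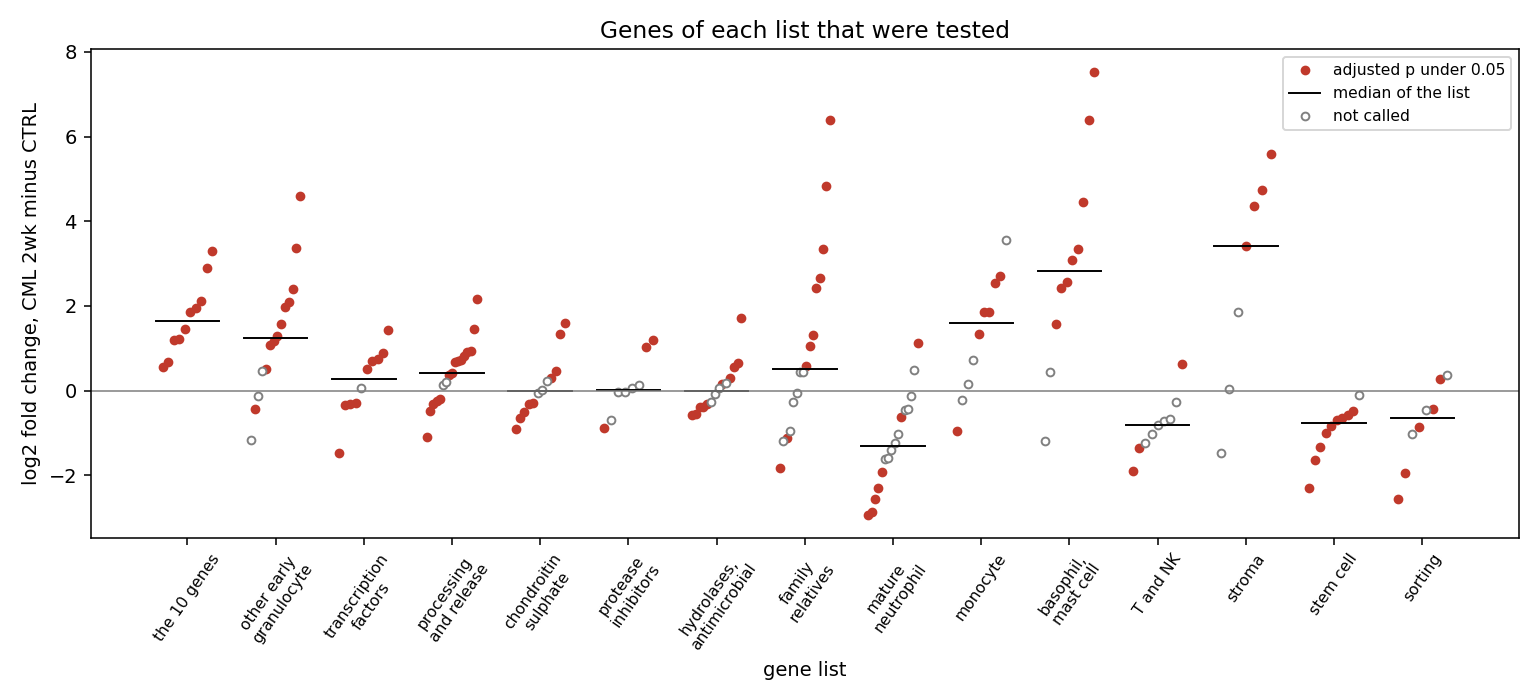
Log2 fold change, CML 2wk minus CTRL, of every tested gene of each list, with called genes in red, genes not called as open circles and the median as a black line. The 10 genes all lie above 0 (median 1.66), mature neutrophil genes lie mostly below it (median -1.32) and basophil and mast cell markers reach furthest above it.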

How the data were processed

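Raw counts per Ensembl gene were the deposited values for each library, and the authors record no normalization of them. The submitters' processing notes name FastQC 0.11.9, fastp 0.23.2, STAR 2.7.10a, featureCounts 2.0.1, DESeq2 1.36.0 and GRCm39 (mm39), whereas the methods name Trim Galore!, HISAT2 and a human build for bulk RNA-seq. The annotation, the strand setting and the handling of multimapping reads are not given in the sources used here, so counts of genes that overlap on opposite strands may be shared, and counts of close paralogs (Serpinb1a, Mcpt and Ms4a families) are uncertain. Apart from the promoter windows, which are on GRCm38.p6, gene coordinates are not given, since the reference used here was GRCm38. Symbols were found for 52073 of 56748 identifiers, and 0 entries named no gene. Exon lengths and gene order came from the GRCm38 annotation.

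Libraries were grouped by their titles. Counts were analysed in R 4.3.3 with edgeR 4.0.16 (TMM factors, filterByExpr, quasi-likelihood test on group only, Benjamini-Hochberg adjustment over 18438 genes, threshold 0.05). CPM used TMM-scaled library sizes, log2 CPM a prior count of 2, and the SE of a log2 fold change was derived from the F statistic. Python 3.11.15 with numpy 2.4.6, pandas 2.3.3, scipy 1.17.1 and matplotlib 3.10.9 was used for the remaining steps. The depth of 16150817 to 41832868 counts per library limits the precision of lists with members under 1 CPM, and PCR copies are not independent molecules. No 2 libraries were identical or within sampling noise (lowest chi-square per degree of freedom 4.07). The fits were tested on simulated counts in which few genes changed and all genes varied alike. In these data many genes changed and the spread differed between the groups, so the simulation does not test the fits under those conditions. Alternatives were DESeq2 1.42.0, other scalings, no filter, a replicate block and left-out libraries. Leaving out CML 2 with CTRL 6, or with CML 4, and leaving Fn1 out of the monocyte markers were chosen after seeing the data.

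The 10 genes and the lists were chosen with earlier results of these data known, and no list was tested as a set. Named were the 10 genes, all tested transcription factors, Ctsc, Cst7, Cfd, Epx, Mcpt8 and Gzmb, the 3 most abundant genes of each other list, the neighbours of the Elane cluster and of Ctsg up to 2 genes away, and the 5 genes most and the 5 least like the mean of Mpo, Elane, Prtn3 and Ctsg, of a mean log2 CPM of at least 1. Of the genes this rule names, 1 is not reported here. Other genes named were chosen after their values were seen.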

Additional observations from a re-analysis of the deposited data

Results flagged for a closer look

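In each group of 6 libraries, the levels of the 10 genes, their sum and the sums of 7 marker lists were examined for a library that stood apart from the nearest other by more than Dixon's 95% critical value allows. Of 36 groups of values, 5 held such a library, where chance gives about 1.8 (1 in 20). The sum of the 10 granule genes was 2541 CPM in CTRL 2, below the other CTRL libraries, the next of which was at 3073. The sum of the mature neutrophil genes was 2951 CPM in CTRL 4, with the next library at 679.5. CML 2 was the library apart in the other three lists: the monocyte markers summed to 2926 CPM there (next 1084), with Fn1 alone at 2005 and the other 9 at 921, below the 1083 of CML 1, the basophil and mast cell markers to 2848 (next 1175) and the stromal markers to 933 (next 362.1).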

How the results depend on the processing

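Across 20 alternatives, 361 of 363 values that answer a comparison were scored as unchanged. For a log2 fold change this meant the same direction and the same side of the threshold. A number of genes called has no such side and was scored as unchanged when near the number of the edgeR fit on group only. Among these were the genes of the marker lists called higher, 14 with the replicate block against 20. The number was also 14 without CML 2 and CTRL 6 and without CML 2 and CML 4. Marker genes called lower were 15 without CTRL 4 and 28 without CML 2 and CTRL 6, against 21. These were scored as unchanged as well, so the score of such a number is a loose one. The exceptions were both for Mpo, whose log2 fold change ran from 0.513 to 0.804 when 1 library was left out and was 0.55 with libraries 1 to 5 of each group. The number of the 10 genes called higher was 9 without CML 6 and with libraries 1 to 5, and 10 in the other alternatives, and 0 were called lower in any. Replicate numbers did not pair the libraries: deviations of same-numbered libraries correlated between -0.166 and 0.120. With the replicate block 4786 genes were higher and 5189 lower, and Mpo had a log2 fold change of 0.57 (adjusted p = 0.0481).

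Apart from Sparc and Col1a2, the genes that changed sign were near 0 and were not called. Without the filter, values were -0.048 for Gm16675, -0.013 for Palm, -0.045 for Pdgfrb, -0.011 for Spi1 and -0.053 for Xylt1. With upper-quartile factors Serpinb9 was 0.035, and with libraries 1 to 5 Serpina3g was -0.016. Leaving out 1 library gave -0.062 to 0.075 for Gm16675, -0.014 to 0.12 for Palm, -0.10 to 0.092 for Pdgfrb, -0.051 to 0.22 for Serpina3g, -0.15 to 0.022 for Serpinb9 and -0.042 to 0.068 for Xylt1. Without CML 2 and CTRL 6, Pdgfrb was -0.018 and Serpinb9 0.0024. Without CML 2 and CML 4, Gm16675 was -0.026, Pdgfrb -0.081, Sparc -0.10 and Col1a2 -2.01, the last with an adjusted p of 0.000515; the 2 libraries left out were those high in stromal markers. The causes of the other changes were not tested.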
